A study of Mus musculus with 35 samples.

Results

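The genes described here were the 4 tissue inhibitors of metalloproteinases (TIMPs; Timp1, Timp2, Timp3 and Timp4) and 6 members of the ADAMTS family of secreted proteases (Adamts1, Adamts2, Adamts4, Adamts5, Adamts12 and Adamts15). They were taken by gene symbol, and all 10 of 10 were found among the 55487 genes listed in each of the 4 count tables. ADAMTS proteases (a disintegrin and metalloproteinase with thrombospondin motifs) cut extracellular matrix proteins such as the large chondroitin sulfate proteoglycans, and Adamts2 trims the propeptide from fibrillar procollagens. TIMPs bind the active site of metalloproteinases and block them, and TIMP-3, which stays attached to the matrix, also inhibits ADAM and ADAMTS enzymes, among them ADAMTS-4 and ADAMTS-5. In the heart the balance between the inhibitors and the proteases sets how the matrix laid down by fibroblasts is turned over.

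The libraries came from C57BL/6 mice and fell into 11 groups. Primary cardiac fibroblasts (CFs), isolated from adult mouse hearts by enzymatic dissociation and adherence to plates, received a scrambled control siRNA (si-NC) or 1 of 2 siRNAs (si-IAMP-1, si-IAMP-2) against the transcript that encodes the micropeptide IAMP. Each of the 3 siRNA groups was left untreated, treated with IL17 after 24 h of siRNA for another 24 h, or treated with TGF-β, for which the labels give no time, with 3 libraries in each of the 9 groups. Whole hearts came from 8-week-old mice labelled Het or KO for IAMP, with 4 libraries in each group, where the KO allele is a frameshift that leaves the transcript in place and the Het hearts carry the same allele on 1 chromosome. The tables held 104139670 to 119232309 estimated counts per CF library and 23497027 to 23857313 counts per heart library. A single read pair in the CF tables corresponds to up to 6 estimated counts, so 3 read pairs (18 estimated counts) were taken as the lowest level that could be told from 0.

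The CF libraries contained RNA of all 10 fibroblast marker genes in every library. Their summed level was 14644.5 to 15021 CPM (counts scaled to the same library total) in untreated si-NC cells, led by Col1a1, and 20391 to 21309 CPM with si-IAMP-1 and 18520 to 18880 CPM with si-IAMP-2, both led by Col3a1. Of 10 cardiomyocyte markers, 4 to 6 exceeded 18 estimated counts in untreated si-NC cells, and Myh6 and Ckm, which define the cell type, were at 0 in all 3. Nearly all of the sum was Tnnt2, and the sum was 91.0 to 98.4 CPM in si-NC, 42.6 to 47.7 CPM in si-IAMP-1 and 28.4 to 33.4 CPM in si-IAMP-2 cells. Macrophage markers summed to 61.6 to 65.9 CPM in si-NC, 61.1 to 64.8 CPM in si-IAMP-1 and 77.6 to 83.1 CPM in si-IAMP-2 cells, led by Lyz2. Mesothelial markers summed to 111 to 124, 106 to 109 and 67.3 to 71.2 CPM, and smooth muscle and pericyte markers, led by Cspg4, to 105 to 118.6, 68.9 to 74.6 and 55.1 to 67.5 CPM in the same order. Endothelial markers lay between 66.8 and 78.7 CPM in all 9 libraries. Because these are bulk samples, more cells of a type and more RNA per cell cannot be told apart, and the part of these other cells in the results below was not tested. The hearts showed all 10 cardiomyocyte markers, led by Myh6 at 15230 to 17792 CPM.

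The knockdown was visible in the target transcript, 4930523C07Rik. In untreated cells its level was 22, 22.7 and 25.7 CPM in the 3 si-NC libraries, 2.52, 3.51 and 2.98 CPM with si-IAMP-1, and 1.77, 1.87 and 1.89 CPM with si-IAMP-2. The transcript fell by 2.97 on the log2 scale (SE 0.112) with si-IAMP-1 and by 3.69 (SE 0.117) with si-IAMP-2, with edgeR adjusted p-values of 3.41e-12 and 1.31e-13. In the hearts it was 15.9 to 18.8 CPM in Het and 15.2 to 17.3 CPM in KO libraries, which overlap. The transcript level cannot check the KO labels, because the frameshift acts on the protein.

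In the GENCODE annotation of GRCm38, Timp1 lies at chrX:20870166-20874735 on the plus strand, Timp2 at chr11:118301069-118355740 on the minus strand, Timp3 at chr10:86300372-86349506 on the plus strand and Timp4 at chr6:115241892-115252205 on the minus strand. Adamts1 (chr16:85793827-85803113) and Adamts5 (chr16:85856173-85901828) are neighbours on the minus strand, Adamts15 (chr9:30899155-30922452) is on the minus strand, and Adamts2 (chr11:50602084-50807573), Adamts4 (chr1:171250421-171260637) and Adamts12 (chr15:11064790-11349231) are on the plus strand.

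The promoters of 7 of the 10 genes are given by RefSeq on GRCm38.p6. They are shown for Timp1, Timp3 and Adamts12, chosen after their values were seen because all 3 were higher with both siRNAs in untreated and IL17-treated cells. Each line runs 5′ to 3′ on the plus strand up to the base before the earlier of the RefSeq and GENCODE starts, at chrX:20869916-20870165 for Timp1, chr10:86300162-86300371 for Timp3 and chr15:11064523-11064772 for Adamts12. Capitals mark a match to ACGTG, a form of the core of the site that hypoxia-inducible factors bind. The form GCGTG was not searched for and is not marked where it occurs.
Timp1: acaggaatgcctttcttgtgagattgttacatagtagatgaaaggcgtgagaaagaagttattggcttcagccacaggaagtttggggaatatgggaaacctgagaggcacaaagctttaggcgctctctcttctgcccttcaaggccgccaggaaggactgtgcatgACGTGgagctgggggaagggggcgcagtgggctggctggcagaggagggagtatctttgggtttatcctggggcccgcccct
Timp3: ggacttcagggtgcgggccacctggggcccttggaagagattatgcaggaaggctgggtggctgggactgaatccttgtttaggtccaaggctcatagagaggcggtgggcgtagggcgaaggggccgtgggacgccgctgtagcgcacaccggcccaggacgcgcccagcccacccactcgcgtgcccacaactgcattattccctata
Adamts12: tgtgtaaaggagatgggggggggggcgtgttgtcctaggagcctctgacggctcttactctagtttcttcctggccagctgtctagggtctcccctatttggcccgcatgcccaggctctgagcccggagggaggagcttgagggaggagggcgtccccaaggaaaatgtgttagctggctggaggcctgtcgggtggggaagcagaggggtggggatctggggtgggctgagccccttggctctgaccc
The 250 bases before the RefSeq start were searched on both strands in all 7 promoters for ACGTG, for the AP-1 motif TGANTCA, for the SMAD palindrome GTCTAGAC and for the NF-kB motif. The only match was ACGTG in Timp1, at position -82 from the start, so no motifs overlapped. Over the 32851 promoters in the table, 16.6% held ACGTG, 6.75% TGANTCA, 0.167% GTCTAGAC and 3.86% the NF-kB motif. A match is a run of letters and not a measured binding site.

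Levels were compared between genes per kilobase of exon sequence, as CPM per kb. In untreated si-NC cells the order was Timp2 at 543 ± 4.2 (SD, n = 3), Timp1 at 520 ± 9.6, Timp3 at 87.2 ± 3.0, Adamts1 at 52.7 ± 0.23, Adamts5 at 25.4 ± 0.76, Adamts2 at 24.0 ± 0.88, Adamts4 at 2.12 ± 0.20 and Adamts12 at 1.13 ± 0.022 CPM per kb. The inhibitors were thus listed above the proteases, apart from Timp4, and the libraries of Adamts5 and Adamts2 overlapped. With the longest transcript as the length, Timp3 was at 150 CPM per kb, Adamts2 (30.8) stood above Adamts5 (25.4) and Adamts15 (0.0414) above Timp4 (0.033). Timp4 and Adamts15 were near the limit of detection in CFs, with 15 to 29 and 16 to 40 estimated counts in the 3 si-NC libraries. In Het hearts the order was Timp2 at 31.9 ± 4.2 (SD, n = 4), Timp3 at 25.8 ± 2.9, Timp4 at 9.70 ± 0.75, Adamts1 at 4.62 ± 1.3, Timp1 at 3.86 ± 1.1, Adamts2 at 2.05 ± 0.39, Adamts5 at 1.56 ± 0.19, Adamts15 at 1.25 ± 0.34, Adamts4 at 0.217 ± 0.088 and Adamts12 at 0.121 ± 0.051 CPM per kb. The libraries of Timp2 and Timp3 overlapped in Het hearts, as did those of Adamts1 and Timp1, those of Adamts2, Adamts5 and Adamts15, and those of Adamts4 and Adamts12. With the longest transcript as the length the order in Het hearts turned for Timp3 (44.4) and Timp2 (33.5) and for Adamts15 (2.19) and Adamts5 (1.56 CPM per kb). Timp4, which is known for its high expression in heart muscle, ranked just below Timp2 and Timp3 in hearts and at the bottom with Adamts15 in CFs. CF and heart tables were made separately, so only the order within each was compared.

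**Figure D1:**
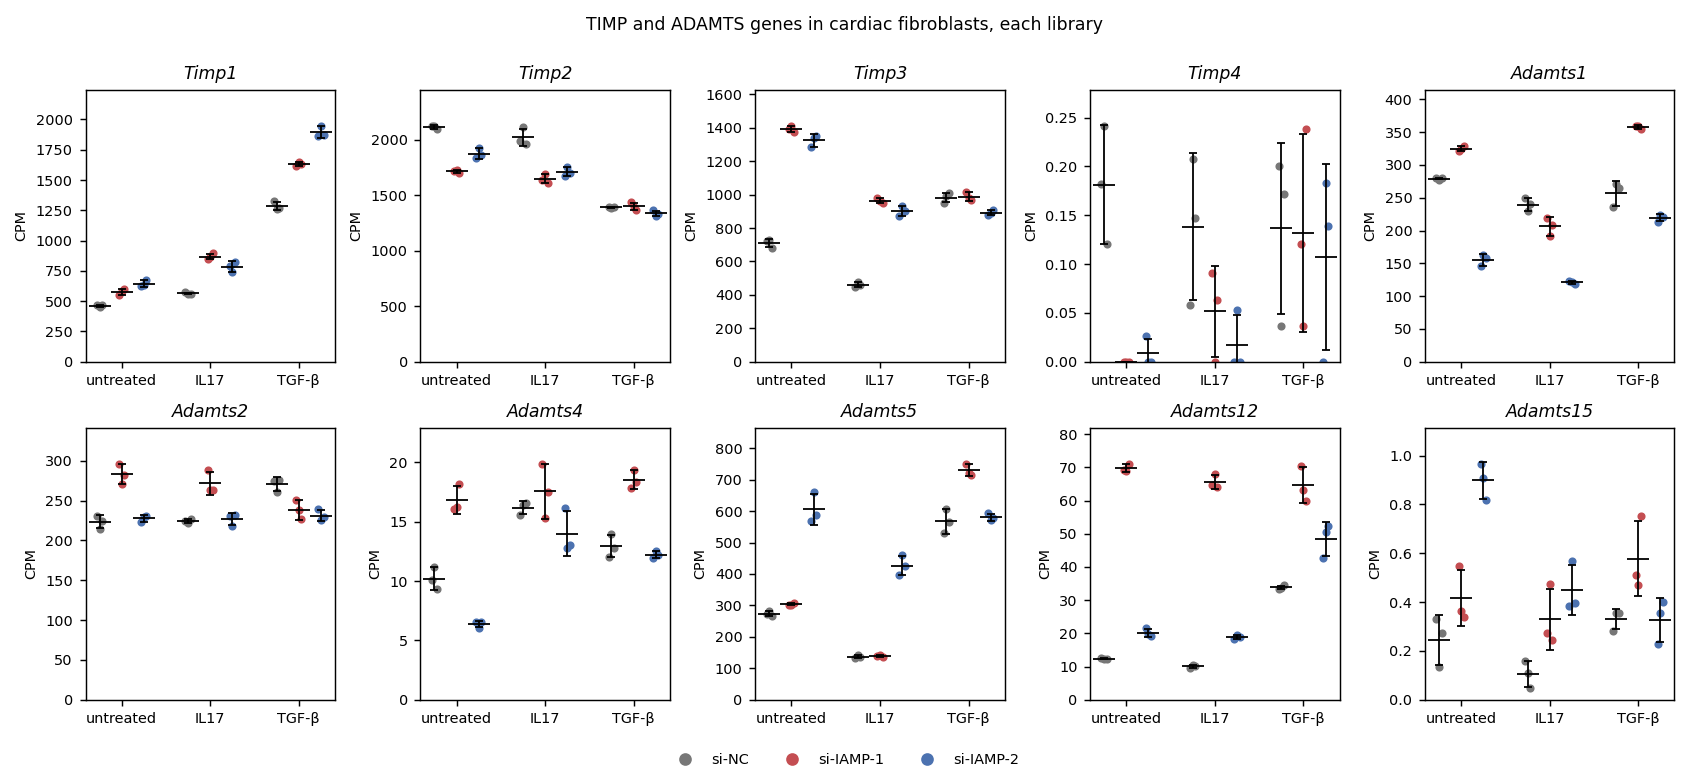
Level of each gene (CPM, linear axis from 0) in every CF library, by treatment and siRNA. Points are libraries, horizontal marks are means and bars are SD (n = 3); Timp3 stood near 1390 CPM with si-IAMP-1 against 710 CPM with si-NC in untreated cells, and from 880 to 1018 CPM in all libraries with TGF-β.

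The first comparison asked what loss of IAMP did to these genes in resting CFs. A gene was called where its edgeR quasi-likelihood p-value, adjusted over all genes tested, was at most 0.05 and its change was at least 2-fold in untreated cells, or at least 1.5-fold in IL17- or TGF-β-treated cells, so calls in untreated cells are the stricter. In untreated cells 1 of the 10 genes was called higher and 1 lower with si-IAMP-1, against 4.76% of the 19669 genes tested in either direction, and 2 were called higher and 1 lower with si-IAMP-2, against 10.7%. The gene called lower was Timp4 with both siRNAs, which passed the filter on low counts only through the si-NC libraries. With at least 10 counts in every library Timp4 was not tested, and the count with si-IAMP-1 was 1. The median log2 change of the 10 genes was 0.33 with si-IAMP-1 and 0.23 with si-IAMP-2, beside -0.016 and -0.020 over all genes. Whether the libraries were separate cultures is not stated, and p-values measure the spread between them.

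Timp3, the matrix-bound inhibitor, had 722, 727 and 682 CPM in si-NC libraries, 1393, 1413 and 1372 CPM with si-IAMP-1, and 1282, 1342 and 1353 CPM with si-IAMP-2. No siRNA library overlapped the si-NC libraries. The difference was 1.95-fold (log2 0.97, SE 0.0314, adjusted p = 5.58e-13) and 1.84-fold (log2 0.88, SE 0.0313, adjusted p = 5.19e-13), just under the 2-fold threshold for a call. Timp3 lies within the span of Syn3 on the other strand and shares 1733 exon bases with it. Syn3 held 37 to 156 estimated counts in the untreated libraries, and the part of Syn3 in the Timp3 counts was not tested. The strand setting of the counting is not stated, so reads from bases that genes on opposite strands share cannot be assigned, for any of the 10 genes.

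Timp1, the inhibitor induced in many inflamed tissues, was 468, 452 and 465 CPM in si-NC, 548, 584 and 600 CPM in si-IAMP-1 and 624, 632 and 677 CPM in si-IAMP-2 cells. The groups did not overlap, and the differences of 1.25-fold and 1.38-fold had adjusted p-values of 4.07e-06 and 2.37e-08. Timp2, the inhibitor that also takes part in the activation of pro-MMP-2, was lower, at 2129, 2123 and 2098 CPM in si-NC against 1703 to 1731 CPM with si-IAMP-1 and 1833 to 1928 CPM with si-IAMP-2. Its log2 differences were -0.31 (SE 0.0258) and -0.19 (SE 0.0258), with adjusted p-values of 5.57e-08 and 6.74e-06. Timp4 had 22, 29 and 15 estimated counts in si-NC libraries, 0 in all 3 si-IAMP-1 libraries and 3, 0 and 0 in si-IAMP-2 libraries. It was called lower with both siRNAs, but it passed the filter on low counts only through the si-NC libraries, so these calls are not read as a result. With at least 10 counts in every library, or counts divided by 6, it was not tested. Set against a floor of 18 counts per library it was only at least 1.22-fold lower, so its fitted fold change is not given. Timp4 shares 90 exon bases with Syn2 on the other strand, and Syn2 had 193 to 220 estimated counts in si-NC, 61 to 120 in si-IAMP-1 and 28 to 70 in si-IAMP-2 libraries, so reads of the 2 genes cannot be told apart there, and the part of Syn2 in the Timp4 counts was not tested. The call with si-IAMP-2 was lost without the filter on low counts, without si-IAMP-2 replicate 2 or 3 and without any of the 3 si-NC libraries, which leaves 2 called genes with that siRNA.

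Adamts12, which is known to cleave cartilage oligomeric matrix protein, had 12.6, 12.1 and 12.4 CPM in si-NC, 69.2, 69.0 and 71.1 CPM in si-IAMP-1 and 21.6, 19.7 and 19.1 CPM in si-IAMP-2 cells. It rose 5.61-fold with si-IAMP-1 (log2 2.49, SE 0.0544, adjusted p = 8.43e-15) and was 1.61-fold higher with si-IAMP-2 (log2 0.68, SE 0.0532, adjusted p = 1.03e-08), without overlap of the groups. Adamts5, an aggrecan- and versican-cleaving enzyme, had 273, 283 and 266 CPM in si-NC, 301, 302 and 307 CPM in si-IAMP-1 and 569, 662 and 587 CPM in si-IAMP-2 cells. It rose 2.18-fold with si-IAMP-2 (log2 1.12, SE 0.0419, adjusted p = 9.13e-13) and was 1.10-fold higher with si-IAMP-1.

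Adamts1, which also cleaves aggrecan and versican, differed from si-NC in opposite directions with the siRNAs. It had 280, 278 and 280 CPM in si-NC, 321, 325 and 329 CPM in si-IAMP-1 and 146, 163 and 158 CPM in si-IAMP-2 cells, 3 ranges that did not overlap. Its log2 difference was 0.21 (SE 0.0339, adjusted p = 7.26e-05) with si-IAMP-1 and -0.86 (SE 0.0342, adjusted p = 1.94e-12) with si-IAMP-2. Adamts4, an aggrecanase like Adamts5, followed the same order, with 9.32 to 11.2 CPM in si-NC, 16.1 to 18.2 CPM in si-IAMP-1 and 6.06 to 6.54 CPM in si-IAMP-2 cells. Its log2 differences were 0.72 (SE 0.0836) and -0.70 (SE 0.0853).

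Adamts2, the procollagen N-proteinase, had 215 to 231 CPM in si-NC and 271 to 297 CPM in si-IAMP-1 cells, a 1.26-fold difference (adjusted p = 1.06e-06), and 223 to 231 CPM in si-IAMP-2 cells, where the log2 difference was 0.01 with a 95% interval of -0.06 to 0.08. Adamts15, another proteoglycan-cleaving member, had 40, 16 and 34 estimated counts in si-NC, 62, 41 and 38 in si-IAMP-1 and 112, 103 and 94 in si-IAMP-2 libraries. It rose 3.60-fold with si-IAMP-2 (log2 1.85, SE 0.365, adjusted p = 0.000406) and its difference with si-IAMP-1 did not pass (log2 0.76, SE 0.366, adjusted p = 0.12). At such counts the error is large.

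The direct comparison of the siRNAs in untreated cells called 1 of the 10 genes higher and 3 lower with si-IAMP-2, against 6.65% of all genes. Adamts12 was 3.5-fold lower with si-IAMP-2 than with si-IAMP-1 (log2 -1.81, SE 0.0528), Adamts4 was 2.66-fold lower and Adamts1 2.11-fold lower, while Adamts15 was 2.13-fold higher. The call for Adamts15 was lost without si-IAMP-2 replicate 1, si-IAMP-1 replicate 2 or si-IAMP-1 replicate 3, where its log2 value was 1.03, 1.00 and 0.96. Timp3 differed between the siRNAs by -0.08 (SE 0.0311) on the log2 scale, Timp1 by 0.15, Timp2 by 0.11, Adamts2 by -0.33 and Adamts5 by 0.98 (SE 0.0418), which was called without si-IAMP-2 replicate 1 (1.02) or replicate 3 (1.00).

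**Figure D2:**
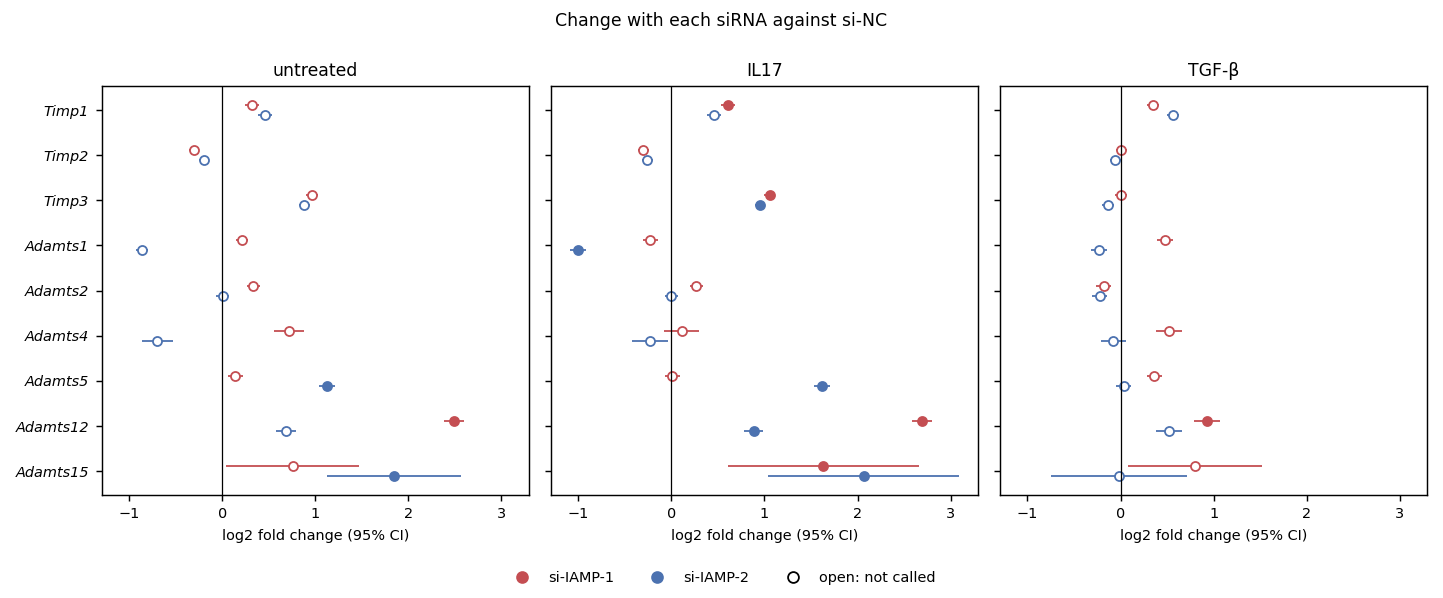
Log2 fold change of each gene with si-IAMP-1 and si-IAMP-2 against si-NC, within each treatment, on a shared axis. Points are edgeR estimates, lines are 95% confidence intervals and filled points are called genes; Timp4 is left out because its counts are near 0, and Adamts12 with si-IAMP-1 stood at 2.49 and 2.69 in untreated and IL17-treated cells but at 0.93 with TGF-β.

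IL17 is an inflammatory cytokine to which fibroblasts respond with chemokine and cytokine genes. All 10 of 10 IL-17 response marker genes rose with it in si-NC cells, where 1.39% of all genes were called, among them Cxcl1 by 7.09 and Lcn2 by 4.82 on the log2 scale. The IL17 libraries form a table of their own, so that in comparisons with untreated cells, interactions included, the table and IL17 cannot be told apart. With IL17 present, 4 of the 10 genes were called higher and 0 lower with si-IAMP-1 (13.5% of the 19906 genes tested were called), and 4 were called higher and 1 lower with si-IAMP-2 (21.7%). Adamts15 is among the higher with both siRNAs, a call not read as a result for the reason given below. The median log2 change of the 10 genes was 0.19 and 0.23, beside -0.003 and -0.017 over all genes. Of the markers of other cells, Tnnt2 (log2 -1.11 and -1.62) and Notch3 (-1.30 and -2.40) fell with si-IAMP-1 and si-IAMP-2 under IL17. Lrrn4 fell with si-IAMP-2 (-1.59), Ryr2 rose with si-IAMP-1 (1.61), and Rgs5 fell with si-IAMP-1 (-0.67) and rose with si-IAMP-2 (0.61). The part of these cells in the results was not tested.

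Timp3 had 447, 475 and 460 CPM in si-NC, 978, 962 and 953 CPM in si-IAMP-1 and 874, 931 and 902 CPM in si-IAMP-2 cells under IL17. It rose 2.08-fold (log2 1.06, SE 0.0291, adjusted p = 3.04e-14) and 1.93-fold (log2 0.95, SE 0.0291, adjusted p = 3.71e-14), and the groups did not overlap. Timp1 had 560 to 572 CPM in si-NC, 849 to 895 CPM in si-IAMP-1 and 737 to 824 CPM in si-IAMP-2 cells. It rose 1.53-fold with si-IAMP-1 (log2 0.61, SE 0.0371), a call lost at a log2 value of 0.58 without replicate 3 of that group, and was 1.37-fold higher with si-IAMP-2, below the threshold. Timp2 was lower by a log2 difference of -0.30 and -0.26, with adjusted p-values of 3.48e-07 and 1.41e-06.

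Adamts12 had 9.59, 10.5 and 10.2 CPM in si-NC, 64.7, 68.0 and 64.1 CPM in si-IAMP-1 and 18.3, 19.4 and 18.9 CPM in si-IAMP-2 cells, and rose 6.46-fold (log2 2.69, SE 0.0537, adjusted p = 7.46e-16) and 1.84-fold (log2 0.88, SE 0.0524, adjusted p = 2e-10). Adamts5 had 132, 143 and 137 CPM in si-NC and 139, 143 and 135 CPM in si-IAMP-1 cells, which overlapped, against 397, 459 and 424 CPM in si-IAMP-2 cells. It rose 3.07-fold with si-IAMP-2 (log2 1.62, SE 0.0424) and its log2 difference with si-IAMP-1 was 0.01 (95% interval -0.07 to 0.09). Adamts1 fell by 1.00 on the log2 scale with si-IAMP-2 (SE 0.0417), from 229 to 249 CPM down to 118 to 124 CPM, and its log2 difference with si-IAMP-1 was -0.23 (SE 0.0411). Adamts15 was called higher with both siRNAs, with 19, 13 and 6 estimated counts in si-NC, 30, 52 and 27 in si-IAMP-1 and 44, 65 and 45 in si-IAMP-2 libraries. Of the si-NC libraries only 1 exceeded 18 estimated counts, so no fold is given. The gene passed the filter on low counts only through the siRNA libraries, so neither call is read as a result. The call with si-IAMP-1 was lost without replicate 2 of that group (adjusted p = 0.095) and without si-NC replicate 3 (adjusted p = 0.064). Adamts2 (log2 0.27 and -0.00) and Adamts4 (0.11 and -0.23) were not called with either siRNA, nor was Timp4, at 0 to 25 estimated counts. When si-IAMP-2+IL17 replicate 2 was left out, Timp4 was called lower with si-IAMP-2. Between the siRNAs 1 gene was called higher with si-IAMP-2 (Adamts5, 3.05-fold) and 2 lower (Adamts12, 3.5-fold, and Adamts1, 1.71-fold), against 15.7% of all genes.

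In the response to IL17 itself, with that limit, in si-NC cells 0 were called higher and 1 lower, against 1.39% of the 21219 genes tested, and in si-IAMP-1 cells 0 and 1 (1.79%) and in si-IAMP-2 cells 1 and 0 (1.7%). Adamts5 fell by 1.00 on the log2 scale in si-NC cells (SE 0.0469), exactly at the threshold, and was lower by a log2 difference of -1.13 (SE 0.0471) in si-IAMP-1 and -0.50 (SE 0.0461) in si-IAMP-2 cells. The call in si-NC cells was lost under 6 alternative settings and without si-NC replicate 2, si-NC+IL17 replicate 1 or si-IAMP-2 replicate 1 (log2 -0.98, -0.97 and -0.999). Adamts4 had 9.32 to 11.2 CPM without and 15.6 to 16.6 CPM with IL17 in si-NC cells, a 1.58-fold difference, and rose 2.2-fold in si-IAMP-2 cells (log2 1.14, SE 0.097). Timp3 was lower with IL17 in all 3 siRNA groups, by log2 differences of -0.63, -0.54 and -0.55, and Timp1 was higher in all 3, by 0.29, 0.58 and 0.29. Adamts15 had 16 to 40 estimated counts without and 6 to 19 with IL17 in si-NC cells, which was not called (adjusted p = 0.077) but was called without si-NC replicate 2 or si-NC+IL17 replicate 1. It had 38 to 62 and 27 to 52 in si-IAMP-1 and 94 to 112 and 44 to 65 in si-IAMP-2 cells, and Timp4 had 0 to 29 without and 0 to 25 with IL17 over the 3 groups, none of them called. Adamts1 had log2 differences of -0.22, -0.66 and -0.35, Adamts12 of -0.30, -0.09 and -0.09, Timp2 of -0.07, -0.06 and -0.12 and Adamts2 of 0.00, -0.07 and 0.00.

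None of the 10 genes was called for a difference between the siRNA effect with and without IL17, against 0.189% of genes for si-IAMP-1 and 0.165% for si-IAMP-2. Below the 2-fold threshold, edgeR gave adjusted p-values of 0.00291 for Timp1 (log2 0.29), 1.86e-05 for Adamts1 (log2 -0.44) and 0.0108 for Adamts4 (log2 -0.60) with si-IAMP-1, and 4.82e-05 for Adamts5 (log2 0.50) with si-IAMP-2. The difference for Timp3 was 0.09 (95% interval 0.01 to 0.18) and 0.08 (-0.00 to 0.16).

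**Figure D3:**
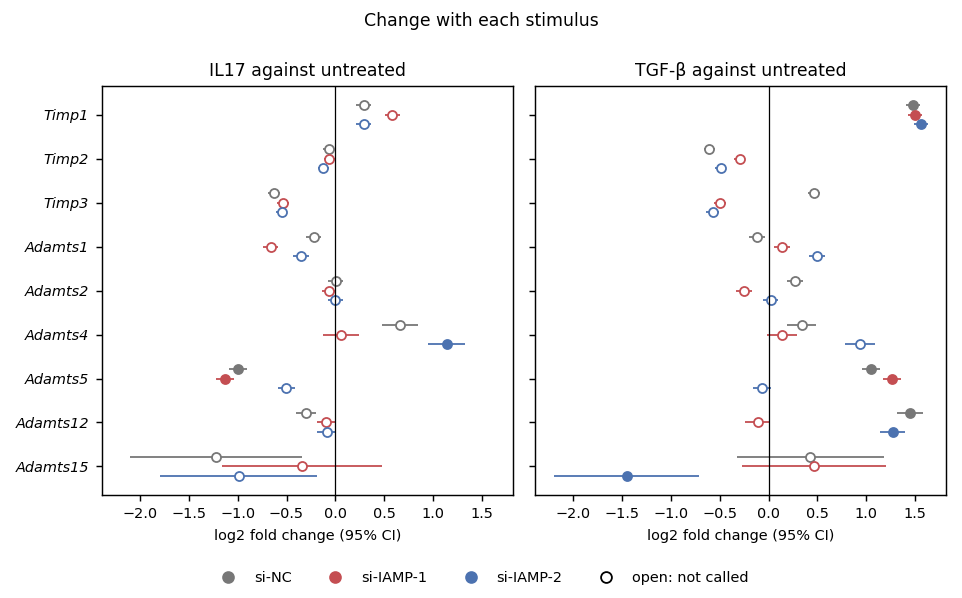
Log2 fold change of each gene with IL17 and with TGF-β against untreated cells, within each siRNA group, on a shared axis. Points are edgeR estimates, lines are 95% confidence intervals and filled points are called genes; Timp1 stood near 1.5 with TGF-β in all 3 groups, and Timp3 was at 0.46 in si-NC but at -0.50 and -0.57 with the siRNAs.

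TGF-β is the cytokine that drives fibroblasts toward contractile, matrix-producing myofibroblasts. Against untreated cells the si-NC libraries labelled TGF-β had higher Ltbp2 (log2 4.82), Cnn1 (2.84), Acta2 (1.55) and Tagln (1.40), but 4 of 12 TGF-beta response markers were called higher and 1 lower (Tgfbi, -1.35), and Smad7 (-0.99) and Skil (-0.03) were not higher. Of the 10 IL-17 response markers, 9 were also called higher, among them Lcn2 (10.14). Mesothelial markers summed to 34.3 to 40.4 CPM against 111 to 124 CPM in untreated si-NC cells, macrophage markers to 153 to 161 CPM against 61.6 to 65.9, and endothelial markers to 125 to 127 CPM against 72.5 to 78.7. Among the mesothelial markers Krt19 (log2 -2.83), Lrrn4 (-2.49) and Upk3b (-1.29) fell, Wt1 (2.45) rose and Msln (-0.52) was not called. Cardiomyocyte markers summed to 5.60 to 6.31 CPM against 91.0 to 98.4, as Tnnt2 fell by 4.30 on the log2 scale, with Myh6 at 0 in 2 of the 3 TGF-β libraries. Smooth muscle and pericyte markers summed to 68.0 to 69.6 CPM against 105 to 118.6, where Rgs5 (2.40) and Abcc9 (1.17) rose and Notch3 (-1.09) fell. Cspg4 (-0.997), which led this list in untreated cells, and Myh11 (0.965) were just under the threshold. The part of these cells in the results was not tested. The TGF-β libraries also form a separate table, and the table and the stimulus cannot be told apart in any comparison with untreated cells.

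With that limit, 3 of the 10 genes were called higher and 0 lower in si-NC cells, against 21.5% of the 21508 genes tested. In si-IAMP-1 cells 3 were called higher and 0 lower (20.9%), and in si-IAMP-2 cells 3 higher and 1 lower (21%), with Timp4, at 0 to 26 estimated counts, among the higher in both. Without TGF-β Timp4 had 0 estimated counts in the si-IAMP-1 and 0 to 3 in the si-IAMP-2 libraries, so neither Timp4 call is read as a result. The Timp4 call in si-IAMP-2 cells was lost under the replicate block (adjusted p = 0.071), with no filter on low counts and when any of 11 libraries was dropped, which leaves 2 higher. Syn2, which shares exon bases with Timp4, had 584 to 623 estimated counts in si-IAMP-1 and 412 to 523 in si-IAMP-2 cells with TGF-β, against 61 to 120 and 28 to 70 without. The median log2 change of the 10 genes in si-NC cells was 0.38, beside 0.029 over all genes. Timp1 rose from 452 to 468 CPM up to 1324, 1260 and 1268 CPM in si-NC cells, a 2.78-fold change (log2 1.47, SE 0.0366, adjusted p = 2e-20). It rose 2.82-fold and 2.94-fold with si-IAMP-1 and si-IAMP-2, to 1616 to 1652 and 1865 to 1950 CPM. Adamts12 rose 2.73-fold in si-NC (to 33.4 to 34.5 CPM) and 2.41-fold in si-IAMP-2 cells, and was at a log2 difference of -0.11 (95% interval -0.24 to 0.01) in si-IAMP-1 cells. Adamts5 rose 2.07-fold in si-NC and 2.40-fold in si-IAMP-1 cells, and was at -0.06 (-0.16 to 0.03) in si-IAMP-2 cells. The call in si-NC cells was lost without si-NC+TGF-β replicate 2, where the log2 change was 1.00. Adamts15 was the gene called lower in si-IAMP-2 cells, from 94 to 112 down to 24 to 43 estimated counts (log2 -1.45, SE 0.38). Timp2 had log2 differences of -0.61, -0.30 and -0.49 in si-NC, si-IAMP-1 and si-IAMP-2 cells, Adamts1 of -0.12, 0.14 and 0.50, Adamts2 of 0.27, -0.25 and 0.02 and Adamts4 of 0.34, 0.14 and 0.94, none of them called.

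The siRNAs were also compared within the TGF-β libraries, and these comparisons do not cross from one table to another. With si-IAMP-1, 1 gene was called higher and 0 lower, against 4.36% of the 19891 genes tested, and with si-IAMP-2 none was called, against 7.51%. Markers of other cells also moved with si-IAMP-2. Upk3b (log2 -0.89), Lrrn4 (-0.70), Krt19 (-0.64), Tnnt2 (-0.67) and Myh11 (-0.90) fell, while Wt1 (-0.50), Msln (-0.39), Rgs5 (-0.15) and Cspg4 (0.25) were not called. None of these markers was called with si-IAMP-1. The part of these cells in the results was not tested. Adamts12 had 33.4, 33.7 and 34.5 CPM in si-NC, 70.5, 63.3 and 60.0 CPM in si-IAMP-1 and 42.7, 50.7 and 52.2 CPM in si-IAMP-2 cells. It rose 1.91-fold with si-IAMP-1 (log2 0.93, SE 0.0716, adjusted p = 8.18e-08) and was 1.43-fold higher with si-IAMP-2. Without si-IAMP-2+TGF-β replicate 1 the latter difference was called (log2 0.60). Timp3 had 951, 989 and 1007 CPM in si-NC, 1018, 977 and 967 CPM in si-IAMP-1 and 880, 889 and 908 CPM in si-IAMP-2 cells. Its log2 differences were 0.01 (95% interval -0.06 to 0.07) and -0.14 (-0.20 to -0.07), so the si-NC and si-IAMP-1 groups overlapped and the si-IAMP-2 group lay below. Timp1 was 1.27-fold and 1.48-fold higher, with adjusted p-values of 5.06e-07 and 9.01e-10. Without si-NC+TGF-β replicate 1 its difference with si-IAMP-2 was called (log2 0.59). The remaining log2 differences, none called, were 0.48 and -0.23 for Adamts1, 0.52 and -0.08 for Adamts4, 0.36 and 0.03 for Adamts5, -0.18 and -0.23 for Adamts2, 0.01 and -0.06 for Timp2 and 0.80 and -0.01 for Adamts15, and Timp4 had 0 to 26 estimated counts. Between the siRNAs 0 genes were called higher and 2 lower with si-IAMP-2 (Adamts1, 1.63-fold, and Adamts4, 1.51-fold, a call lost without si-IAMP-2+TGF-β replicate 1 or si-IAMP-1+TGF-β replicate 2), against 3.96% of all genes.

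The siRNA effect differed between TGF-β-treated and untreated cells for several genes. With si-IAMP-1 the interaction test called 1 gene higher and 1 lower, against 2.36% of genes, and with si-IAMP-2 0 higher and 3 lower, against 5.09%. For Adamts12 the si-IAMP-1 effect was 1.56 lower on the log2 scale with TGF-β, as the interaction was -1.56 (SE 0.0931, adjusted p = 1.8e-11). For Timp3 the interaction was -0.96 (SE 0.0463, adjusted p = 4.96e-13) with si-IAMP-1, under the threshold, and -1.04 (SE 0.0463, adjusted p = 3.96e-14) with si-IAMP-2. Without si-NC replicate 3 the latter was -0.98 and no longer called. For Adamts5 and Adamts15 the interaction with si-IAMP-2 was -1.11 (SE 0.0668) and -1.88 (SE 0.54). Timp4 was called with si-IAMP-1, at 0 counts in 3 of the libraries behind it, so this call is not read as a result. The call was lost without any of the 3 si-IAMP-1 libraries, si-NC replicate 2 or si-IAMP-1+TGF-β replicate 3. With si-IAMP-2, Timp4 was called when si-IAMP-2 replicate 1 was left out.

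The other genes of the protease system were read from lists of related proteins. Of 13 other ADAMTS proteases, 8 were tested in untreated cells, where 3 rose and 1 fell with si-IAMP-1 and 2 rose and 3 fell with si-IAMP-2, where 4.76% and 10.7% of all genes were called. Adamts9, a versican-cleaving family member, rose by 1.05 and 1.04 on the log2 scale in untreated and by 1.36 and 1.43 in IL17-treated cells. Adamts6 rose by 1.12 and 1.22, and by 1.08 and 0.90. Adamts14, which like Adamts2 processes procollagen, fell by 1.43 and 2.53 in untreated and by 0.60 and 1.97 in IL17-treated cells. Of 7 ADAMTS-like proteins and papilin, which lack the protease domain, 0 rose and 3 or 2 fell in untreated cells. Adamtsl2 fell by 1.22 and 1.49 and Adamtsl3 by 1.09 and 1.07, and both fell with each siRNA under IL17 and TGF-β as well.

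Of 23 listed metalloproteinases of the MMP and ADAM families, 22 were tested. In untreated cells 4 rose and 2 fell with each siRNA, where 4.76% and 10.7% of all genes were called. The median log2 changes of the list were 0.23 and 0.17, beside -0.016 and -0.020 over all genes. Mmp3, stromelysin-1, rose by 1.80 and 1.96 on the log2 scale in untreated, by 1.86 and 1.98 in IL17-treated and by 0.80 and 1.03 in TGF-β-treated cells. Mmp13, a collagenase, rose by 1.51 and 1.67, by 2.30 and 2.54 and by 1.61 and 1.98. Mmp8, the neutrophil collagenase, rose by 2.1 and 2.12 in untreated and by 2.32 and 2.60 in IL17-treated cells, and Adam19 by 1.23 and 1.08 and by 1.17 and 1.01. Of 11 tested ADAMTS substrates, 0 were called with si-IAMP-1 and 2 rose and 1 fell with si-IAMP-2 in untreated cells. Of 11 tested other protease regulators, none was called with either siRNA in untreated cells. In the hearts none of the genes on these lists was called, nor was any other gene (0%).

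With TGF-β in si-NC cells, 5 of 10 tested other ADAMTS proteases rose and 0 fell, and 6 of 22 metalloproteinases rose and 3 fell, where 21.5% of all genes were called, 12.5% higher and 9.07% lower. The 3 with the largest rise on these lists were Adamtsl2 (log2 4.08), Adamts16 (3.71) and Mmp9 (3.52), and the 3 with the largest fall were Mmp24 (-2.22), Thbs1 (-2.01), a matrix glycoprotein, and Adam12 (-1.86). With IL17 in si-NC cells none of the genes on these lists was called, where 1.39% of all genes were.

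Likeness of pattern was measured as Pearson's r of mean log2 CPM over the 9 CF groups, among 5467 genes that varied at least 2-fold. The groups share control libraries and depth, so r is a description. The closest genes were Mid1ip1 (0.986) and Ciz1 (0.982) for Timp1, Vgll3 (0.910) and F2r (0.906) for Timp3, Zfp991 (0.971) and Aebp1 (0.970) for Adamts12, Thrb (0.960) and Kank2 (0.958) for Adamts5, Gnao1 (0.956) and Ehbp1 (0.955) for Adamts1, and Gm20427 (0.847) and Igsf10 (0.844) for Adamts4.

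In the hearts none of the 10 genes was called between KO and Het, against 0% of the 16675 genes tested with edgeR. Over all genes 601 had an unadjusted p under 0.05, and DESeq2 called 1 gene higher and 2 lower. Timp3 had 199, 187, 211 and 242 CPM in Het and 221, 276, 226 and 248 CPM in KO libraries, which overlap. Its log2 difference was 0.21 (SE 0.0902, 95% interval 0.03 to 0.39), with an unadjusted p of 0.042 in the edgeR fit across all genes and an adjusted p of 1. Timp2 had 102 to 140 CPM in Het and 116 to 125 CPM in KO hearts (log2 difference -0.03, 95% interval -0.19 to 0.14). Timp4 had 53.5 to 63.0 and 54.9 to 63.6 CPM (0.08, -0.05 to 0.21).

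Adamts12, which rose most in the CFs with si-IAMP-1, had 0.566 to 1.88 CPM in Het and 0.845 to 1.64 CPM in KO hearts (log2 difference -0.06, 95% interval -0.68 to 0.56). Adamts5 had 14.6 to 19.5 and 16.4 to 18 CPM (0.04, -0.12 to 0.21). The intervals of Timp1, Adamts1, Adamts4 and Adamts15 were -0.41 to 0.50, -0.57 to 0.54, -0.93 to 0.51 and -0.82 to 0.14, and that of Adamts2 was -0.30 to 0.18. The Het and KO values of all 10 genes overlapped.

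**Figure D4:**
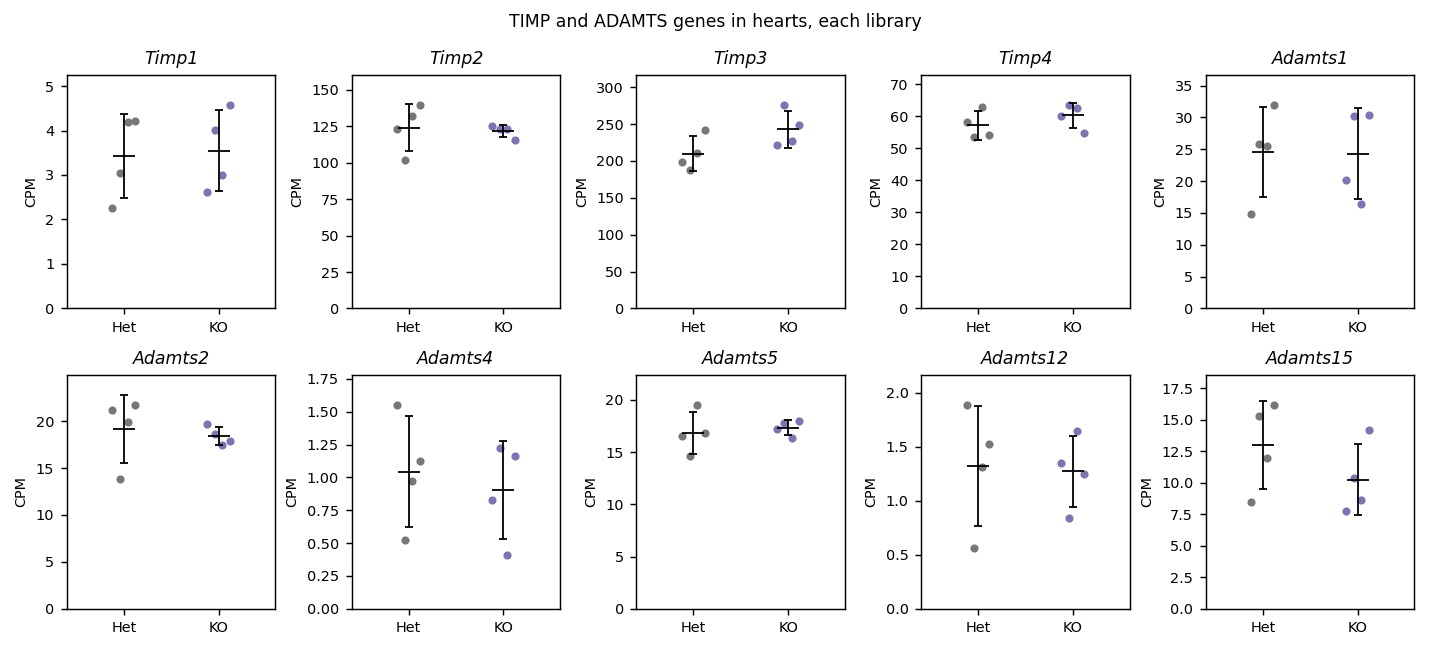
Level of each gene (CPM, linear axis from 0) in every Het and KO heart library. Points are libraries, horizontal marks are means and bars are SD (n = 4); the groups overlapped for all 10 genes, and Timp3 ranged from 187 to 242 CPM in Het and from 221 to 276 CPM in KO hearts.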

How the data were processed

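RNA was sequenced from 27 CF and 8 heart libraries. Per the labels and the methods of the study, the authors trimmed reads with cutadapt, aligned them to GRCm38 with HISAT2 and quantified genes with StringTie. The deposited CF tables hold estimated counts, whole numbers read here as derived from StringTie coverage, and the deposited heart table holds counts per gene. The strand setting is not given in the sources used here. All 35 columns were mapped to groups, the heart columns by genotype only.

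Each table was fitted with edgeR 4.0.16 (limma 3.58.1, R 4.3.3): TMM factors, filterByExpr, and a robust quasi-likelihood test with Benjamini-Hochberg adjustment over all genes tested. Stimulus responses and interactions were fitted on 2 CF tables together. SE is the absolute log2 change divided by the square root of F. CPM used TMM factors, and lengths are exon unions in GENCODE. All 10 genes passed filterByExpr in each table. The genes, lists and tests were chosen with earlier results of these data known. All 10 genes were tested in every comparison, and the text names them together with listed genes called in the same direction with both siRNAs in at least 2 CF tables and with the 3 largest rises and falls per stimulus. Tests were checked on simulated data. DESeq2 1.42.0 and other settings served as alternatives. Some genes are not reported here.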

Additional observations from a re-analysis of the deposited data

Results flagged for a closer look

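The siRNA effect differed between TGF-β-treated and untreated cells, by the interaction term of the edgeR fit across all genes, for 5 of the 20 tests of this kind on the 10 genes, where 2.36% of all genes passed with si-IAMP-1 and 5.09% with si-IAMP-2. The log2 difference was -1.04 for Timp3 with si-IAMP-2, -1.11 for Adamts5 with si-IAMP-2, -1.56 for Adamts12 with si-IAMP-1, -1.88 for Adamts15 with si-IAMP-2 and 7.31 for Timp4 with si-IAMP-1. For Timp4 the call rests on 0 counts in the untreated si-IAMP-1 libraries, so no value is given and the call is not read as a result. The Timp4 call was lost without any 1 of 5 libraries. With at least 10 counts in every library Timp4 was not tested, and the count with si-IAMP-1 was 1. The Timp3 call was lost without si-NC replicate 3 (-0.98). The TGF-β table and the stimulus cannot be told apart. No heart library stood apart from the others of its group in any of the 20 sets of 4 values tested.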

How the results depend on the processing

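Counts of the 10 genes called moved mostly with the fold threshold. With the other threshold (1.5-fold in place of 2-fold, or the reverse) they were 4 and 7 for si-IAMP-1 and si-IAMP-2 in untreated cells, 3 for si-IAMP-2 with IL17, 0 for si-IAMP-1 with TGF-β, 3 for the IL17 response in si-NC cells, and 1 and 5 for the interactions of IL17 with si-IAMP-1 and of TGF-β with si-IAMP-2. The shares of all genes at the other threshold are not given here, so these counts are not read as a result about the 10 genes. With no fold threshold they were 9 and 9 in untreated cells (39.9% and 49.3% of all genes), 7 for si-IAMP-1 with IL17 (42.3%), 6 and 5 with TGF-β (23.1% and 29.9%), 6 and 8 for the IL17 and TGF-β responses in si-NC cells (13.6% and 57.3%), 3 and 1 for the IL17 interactions (2.13% and 1.89%) and 7 and 7 for the TGF-β interactions (19.6% and 30.2%). With at least 10 counts in every library, or counts divided by 6, Timp4 was not tested and the count was 1 in untreated si-IAMP-1 cells and 1 for the TGF-β interaction with si-IAMP-1. The IL17 response in si-NC cells had 0 calls with DESeq2, RLE factors, no filter, at least 10 counts, counts divided by 6, or the compared groups alone. Over all hearts' genes DESeq2 called 1 higher and 2 lower against 0. The fold threshold also moved the counts over all genes, for example from 423 to 1066 higher and 513 to 1308 lower with si-IAMP-1 in untreated cells.

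Several values changed sign. Adamts2 was -0.0013 in untreated si-IAMP-2 cells with at least 10 counts, 0.0021, 0.0037 and 0.0050 in IL17-treated si-IAMP-2 cells with DESeq2, RLE and no filter, -0.0080, -0.0038 and -0.0066 under these for the IL17 response in si-IAMP-2 cells, and -0.000509 for the TGF-β response there with DESeq2. Adamts5 was -0.0037 in IL17-treated si-IAMP-1 cells with DESeq2, Timp2 was -0.0060 for the IL17 interaction with si-IAMP-1 in the compared groups alone, and Timp1 was -0.013, -0.010, -0.0076 and -0.019 for that with si-IAMP-2 with DESeq2, RLE, no filter and the groups alone. The causes were not tested.

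Replicate numbers did not pair the samples: correlations of same-numbered deviations ran from -0.20 to 0.138 in untreated, -0.093 to 0.170 in IL17 and -0.44 to 0.116 in TGF-β libraries. With the replicate block the counts of called genes were the same as without it: 2, 3, 4, 5, 1 and 0 for the siRNA comparisons in order, 1 and 3 for the responses and 0, 0, 2 and 3 for the interactions. The values that changed sign were Adamts2 at -0.000163 for the IL17 response in si-IAMP-2 cells and Adamts15 at -0.0041 for the TGF-β interaction with si-IAMP-1. Timp4 with TGF-β in si-IAMP-2 cells, a call not read as a result, lost it under the block (adjusted p = 0.071), with no filter, and when any of 11 libraries was dropped (18 were tried). Heart columns carry no replicate numbers.

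Leaving out each library in turn gave 0 to 1 called genes for si-IAMP-2 with TGF-β, 0 to 1 for the IL17 response in si-NC cells and 1 to 2 for the TGF-β interaction with si-IAMP-1. It changed a sign in the hearts for Adamts1 (-0.19 to 0.14), Adamts12 (-0.30 to 0.16), Adamts2 (-0.19 to 0.0045), Adamts4 (-0.42 to 0.042), Adamts5 (-0.019 to 0.12), Timp1 (-0.11 to 0.17) and Timp2 (-0.11 to 0.034). It did so with TGF-β for Adamts15 (-0.18 to 0.19), Adamts5 (-0.012 to 0.087) and Timp4 (-0.96 to 0.24) with si-IAMP-2, and for Timp2 (-0.0098 to 0.025), Timp3 (-0.015 to 0.027) and Timp4 (-0.79 to 0.39) with si-IAMP-1. In the IL17 interaction with si-IAMP-2 it did so for Adamts15 (-0.11 to 0.64), Adamts2 (-0.025 to 0.033), Timp1 (-0.036 to 0.050) and Timp4 (-2.78 to 4.48), and with si-IAMP-1 for Timp2 (-0.018 to 0.036). In the TGF-β interaction with si-IAMP-1 it did so for Adamts15 (-0.22 to 0.33) and Timp1 (-0.0016 to 0.063). The rest were Adamts2 with si-IAMP-2 in untreated (-0.023 to 0.027) and IL17-treated cells (-0.028 to 0.024), the IL17 response of Adamts2 (-0.017 to 0.034) and Timp4 (-3.17 to 4.09) in si-IAMP-2, of Adamts2 in si-NC (-0.027 to 0.026) and of Adamts4 in si-IAMP-1 cells (-0.041 to 0.14), Adamts5 with si-IAMP-1 and IL17 (-0.023 to 0.036), the TGF-β response of Adamts5 in si-IAMP-2 (-0.11 to 0.0034) and of Timp4 in si-NC cells (-0.79 to 0.039), and Timp4 between the siRNAs in untreated (0 to 3.71) and TGF-β-treated cells (-0.91 to 0.45). Timp4, at 0 to 29 estimated counts in CFs, lay near the floor of 18, and so did Adamts15 in several groups, which limits what can be said of either.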
